A study of Mus musculus with 8 samples.

Results

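Selenoprotein transcripts were described in the gastrocnemius, a mostly fast-fibred muscle of the calf, in male mice with an intact or a disrupted Bcat2 gene. Its product, BCATm, is the enzyme of mitochondria that takes the amino group off leucine, isoleucine and valine. The 10 genes were chosen by symbol, as Sepw1, Sepp1, Sepn1, Selk, Selt, Gpx1, Gpx3, Gpx4, Txnrd1 and Txnrd2, out of 38741 distinct symbols in the deposited table. Sepw1 was picked for its share of the summed signal, so the size of that share is a description and was not tested. Values are FPKM, fragment counts divided by exon length in kilobases and by the mapped fragments of the library, with 1 library per mouse. The wild-type group held 4 mice of 9 to 10 weeks weighing 22 to 25 g (WT1 to WT4). The other group held 4 mice homozygous for the Bcat2tm1.2Clyn allele, of 10 to 11 weeks and 15 to 24 g (KO5 to KO8). All were on a C57BL6 background, and all had a free choice of chow and a purified diet without branched-chain amino acids. The labels do not tie a single knockout's age or weight to a column.

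Selenoproteins carry selenocysteine, an amino acid encoded by UGA, a codon that otherwise ends translation. The codon is read through with a hairpin in the 3′ untranslated region of the mRNA, its binding protein SECISBP2, the elongation factor EFSEC and a dedicated tRNA. Most selenoproteins with a known activity are redox enzymes with selenocysteine in the active site, and selenoprotein W, the product of Sepw1, is a small thioredoxin-fold protein known for its abundance in skeletal muscle and for its response to selenium supply.

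The annotation (GENCODE M21, mm10) holds the position of each selenocysteine codon, and the coding bases around it are shown for 8 of the 10 genes because this codon is what the family shares. Each line gives the spliced coding strand 5′ to 3′ with up to 24 coding bases on each side, and the capitals mark the selenocysteine codon, written as DNA.
Sepw1: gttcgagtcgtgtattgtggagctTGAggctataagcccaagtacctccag
Selt: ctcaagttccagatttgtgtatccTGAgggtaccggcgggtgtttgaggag
Gpx1: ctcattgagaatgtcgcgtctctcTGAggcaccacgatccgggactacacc
Gpx3: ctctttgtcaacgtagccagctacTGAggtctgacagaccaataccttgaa
Gpx4: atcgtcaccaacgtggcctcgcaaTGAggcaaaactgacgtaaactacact
Sepp1, first codon: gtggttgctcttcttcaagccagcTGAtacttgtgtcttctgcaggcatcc
Txnrd1: ggagacatcctccagtctggctgcTGAggt
Txnrd2: ctggagcctactgtgactggttgcTGAggc

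Among the 10 genes, only Sepw1 and Selt had a cysteine codon (tgt) 3 codons before the selenocysteine codon, the spacing of a thioredoxin-like active site. In Sepp1 a tgt lies 3 codons after the first selenocysteine codon. Outside the 10, the selenoprotein genes Selm, Selo and 2700094K13Rik also had a cysteine codon 3 codons before it. In Sepw1 the selenocysteine codon is number 13 of 88 and lies in exon 2 of 6, at chr7:15920464-15920466 on the minus strand. In the glutathione peroxidases it is number 47 of 201 (Gpx1), 73 of 226 (Gpx3) and 129 of 253 (Gpx4) in the transcripts used. In Txnrd1 and Txnrd2 it is the last codon but 1 (612 of 613 and 526 of 527) and directly follows a cysteine codon, tgc. Sepp1, the carrier, had 10 annotated selenocysteine codons, and each of the other 9 genes had 1.

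The data as a whole bear on these genes in several ways. FPKM summed to between 691168 and 896190 per library, and relative depth, estimated from low values, ran from 0.435 (WT4) to 1.22 (WT3) of that of WT2. Bcat2 itself read 41.2 to 83.0 FPKM in wild-type mice and 2.09 to 5.26 FPKM in the knockouts. Fast muscle markers summed to 75086 to 113011 FPKM per mouse over 9 genes, and Acta1 was not analysed here. Among these, Myh4 averaged 4043.5 FPKM in wild-type and 2616 FPKM in knockout mice (limma adjusted p = 0.480). Slow muscle markers summed to 233 (WT2) to 1565 (KO5) FPKM over 6 genes. On the log2 scale, knockouts averaged lower for 6 of 6 endothelial markers and higher for 6 of 6 Schwann cell markers. The smallest limma adjusted p in both lists was 0.480. WT1 and KO6 stood apart: they were the highest 2 mice for 8 of 8 adipocyte markers, which summed to 6507 and 2632 FPKM against 61.9 to 541 FPKM in the other 6. KO6 also had 496 FPKM of 7 epidermal markers, against at most 3.19 FPKM elsewhere. The 8 macrophage markers summed to 280 FPKM in WT1 and 400 FPKM in KO6, against 134 to 195 FPKM in the other 6. For 6 of these 8 markers WT1 and KO6 were the highest 2 mice. Short and long transcripts also differed by mouse. The median deviation of transcripts under 1000 nt minus that of transcripts over 4000 nt was -0.76 on the log2 scale in WT3, -0.33 in WT4 and 0.22 in KO8, and lay between -0.13 and -0.002 in the other 5 mice.

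Sepw1 (ENSMUSG00000041571, Selenow in GENCODE, mm10 chr7:15917208-15922402, minus strand) had the highest FPKM of all rows in 8 of 8 mice. No row was found under the symbol Acta1, so this rank and the shares below hold among the listed rows only. It read 84002, 109518, 87965 and 78409 FPKM in WT1 to WT4 and 97099, 108435, 88789 and 91327 FPKM in KO5 to KO8. The highest wild-type and the highest knockout value lay close together, and the groups overlapped. Means were 89973 ± 13607 FPKM in wild-type mice and 96413 ± 8737 FPKM in knockout mice (SD, n = 4 each). The next gene by mean was Myl1, a fast myosin light chain, at 39242 FPKM, followed by Mylpf, the phosphorylatable fast light chain, at 27424 FPKM and Pvalb, the calcium buffer parvalbumin, at 19425 FPKM. Within each mouse, Sepw1 stood 1.64 (KO8) to 3.35 (KO6) times above the next gene, leaving out a pair of gene models described next.

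As a share of the summed FPKM, Sepw1 took 11.1%, 13.8%, 12.7% and 9.76% in WT1 to WT4 and 10.8%, 12.4%, 12.3% and 11.997% in KO5 to KO8. The lowest share was that of WT4 and the highest that of WT2, so the knockouts lay inside the wild-type range. Mean shares were 11.9% ± 1.78 and 11.9% ± 0.716 (SD, n = 4 each), a difference of 0.0213 percentage points that was within the spread (exact permutation p = 1, 2-sided). The sum itself moved with 2 gene models on chromosome 2, Gm13340 and Gm13341, which were listed at 0 in 5 mice and together made up 10.7%, 6.92% and 7.36% of the sum in WT4, KO5 and KO6. Without them, a choice made after seeing the data, the Sepw1 share ran from 10.9% to 13.8%, and the difference was 0.176 percentage points (exact permutation p = 0.83, 2-sided). All 37 rows of the mitochondrial chromosome were listed at 0 and add nothing to the sum. FPKM is a level per transcript length, and the 736-nt Sepw1 transcript is short. FPKM times that length gives 5.77% to 8.06% of the mapped fragments. Scaled to the sum of FPKM times the longest transcript over all genes, the share was 4.31% to 6.19%. The transcript lengths behind the deposited values were not given in the sources used here.

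**Figure D1:**
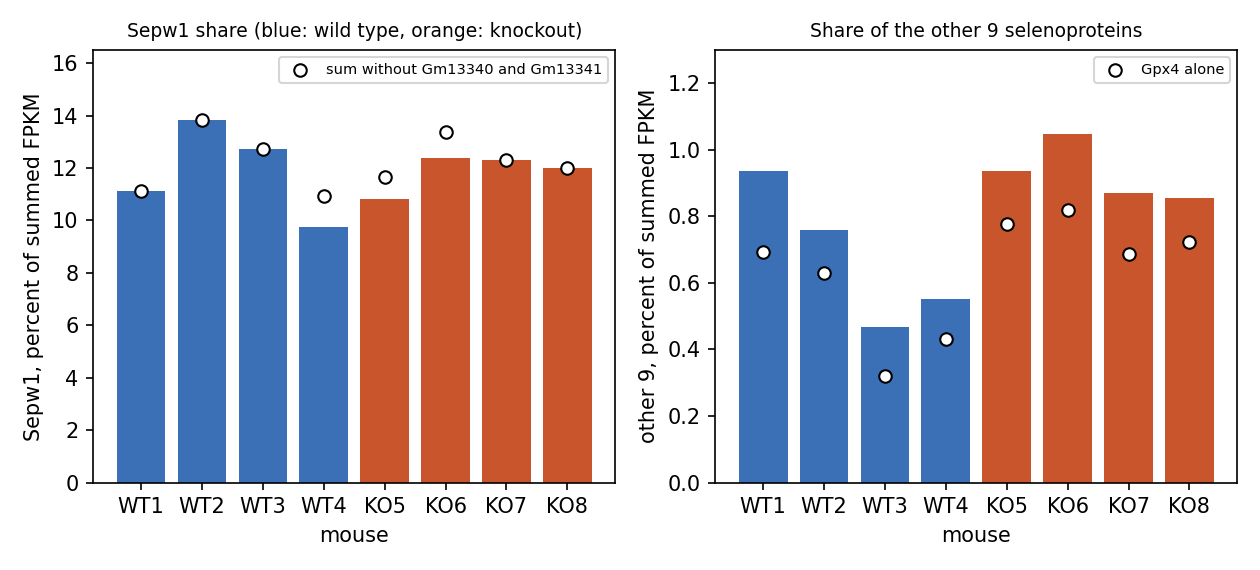
Left, Sepw1 as percent of the summed FPKM of each mouse (bars, blue wild type, orange knockout), with the share after leaving Gm13340 and Gm13341 out of the sum as open circles; right, the other 9 selenoproteins summed (bars) and Gpx4 alone (circles) as percent of the summed FPKM. Sepw1 takes 9.76% to 13.8% in every mouse, and the other 9 together take 0.468% to 1.05%, lowest in WT3 and WT4.

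Sepw1 varied little between mice of a genotype. Its within-group SD was 0.173 on the log2 scale, against a median of 0.299 over the tested genes, and 10.3% of the tested genes had a smaller one. Its change was 0.11 (SE 0.11, 95% interval -0.15 to 0.37, limma adjusted p = 0.664). Median-ratio scaling gave 0.26 (limma adjusted p = 0.503), and without WT1 and KO6 the change was 0.02 with a wider interval of -0.84 to 0.88. By quantile scaling the change was 0, since that method gives the highest-ranked gene of each mouse the same value. With the trend on transcript length and GC content removed, it was -0.05 (limma adjusted p = 0.904). Tested genes were also ranked by Pearson r with Sepw1, leaving out those whose symbol is only provisional. Among the rest, the 5 whose log2 levels followed Sepw1 most closely over the 8 mice were Ankrd39, Dclre1a, Nudt21, Cdkn2aipnl and Bod1. Their Pearson r ran from 0.888 to 0.936. As the top of a long ranking over 8 points, such values can arise by chance, and they were not tested. Dclre1a was also low, at 0.542 (WT4) to 3.69 (KO6) FPKM. These 8 points share libraries and genotype. Among the other selenoproteins described, r with Sepw1 was highest for Gpx4 (0.538) and Selk (0.486).

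The other 9 genes lay far below Sepw1, which made up 92.0% to 96.5% of the FPKM of the 10 genes in each mouse. Together the 10 took 12.5% ± 1.80 of the summed FPKM in wild-type mice and 12.8% ± 0.730 in knockouts (SD, n = 4 each). The 9 without Sepw1 took 0.680% ± 0.211 and 0.928% ± 0.0872, and WT1 lay within the knockout range of 0.856% to 1.05%. In order of mean level over the 8 mice the 9 were Gpx4 (5062 FPKM), Gpx1 (404 FPKM), Sepp1 (317 FPKM), Gpx3 (247 FPKM), Selk (217 FPKM), Selt (105 FPKM), Txnrd1 (33.8 FPKM), Txnrd2 (4.66 FPKM with its zeros counted) and Sepn1 (3.70 FPKM). Gpx4 ranked number 19 of all symbols by mean, 18.4 times below Sepw1 and 12.5 times above Gpx1. The ranges over the mice overlapped between neighbours from Gpx1 to Selk, and between Txnrd2 and Sepn1. Gpx3 exceeded Selk in 5 of 8 mice and Txnrd2 exceeded Sepn1 in 5 of 8. Selk, Selt and Txnrd1 were each above their lower neighbour in 8 of 8 mice, with ranges that did not overlap.

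**Figure D2:**
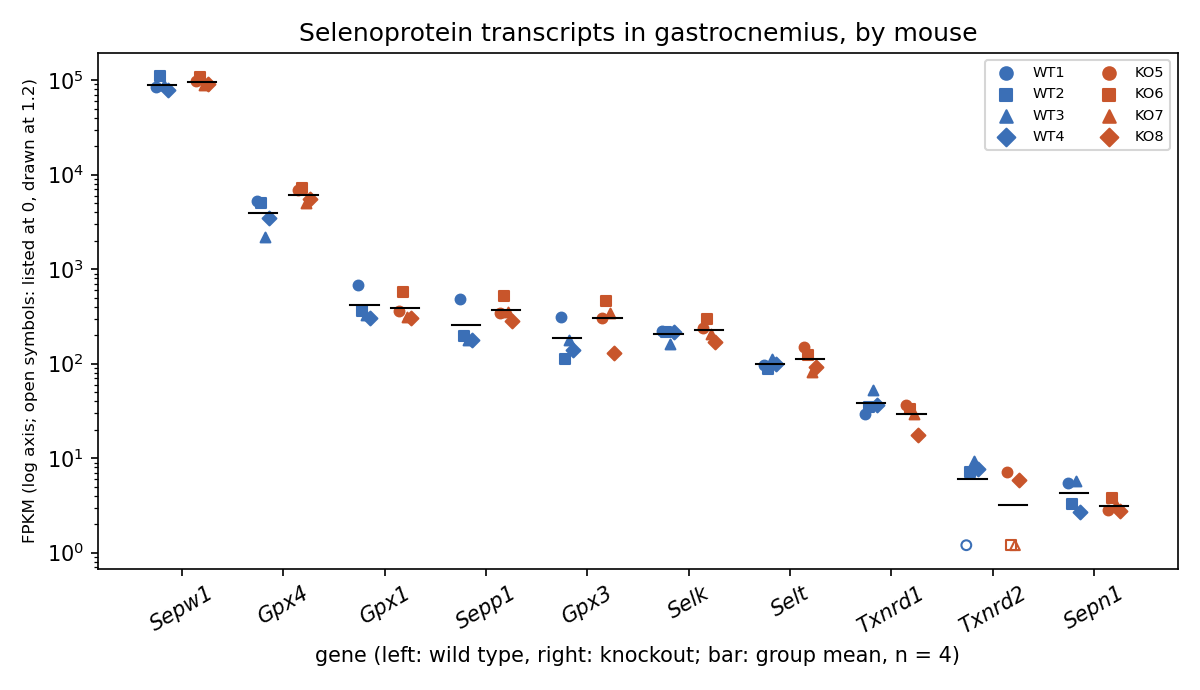
FPKM on a log axis of the 10 genes in order of mean level, with 1 symbol per mouse (blue wild type, left; orange knockout, right) and bars for group means; open symbols are values listed at 0. Sepw1 lies near 93193 FPKM and Gpx4 near 5062 FPKM, while the means of the other 8 lie between 3.70 and 404 FPKM.

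The design compares the genotypes. None of the 10 genes passed the test across all 11118 tested genes (limma adjusted p from 0.480 to 0.915), where 3 genes passed, or 0.027%. At an unadjusted limma p under 0.05 stood 1 of the 10, Gpx4, against 10.3% of all tested genes. Groups that did not overlap were found in 0 of the 10, against 6.75% of tested genes. Of the 10 changes, 6 lay above 0 and 4 below, and their median was 0.13 on the log2 scale. The median of all tested genes was -0.12, with 36.4% above 0, and median-ratio scaling moved it to -0.002. Leaving out KO8 alone moved it to -0.024, so much of this shift hung on 1 library. The median deviation over all tested genes was -0.35 on the log2 scale in KO8, the lowest of any mouse. Relative to the all-gene median, the changes were 0.23 for Sepw1, 0.81 for Gpx4, 0.04 for Gpx1, 0.75 for Sepp1, 0.82 for Gpx3, 0.27 for Selk, 0.26 for Selt, -0.29 for Txnrd1 and -0.19 for Sepn1, and those below are not shifted. The members' shares at an unadjusted p and without overlap were near or under the background.

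Among the glutathione peroxidases, which reduce peroxides at the cost of glutathione, Gpx4 acts on lipid hydroperoxides in membranes. Gpx4 (ENSMUSG00000075706, chr10:80047166-80056439) read 5235, 4998, 2214 and 3461 FPKM in WT1 to WT4 and 6951, 7178, 4955 and 5506 FPKM in KO5 to KO8. WT3 and WT4 were lowest, 3 of 4 knockouts lay above every wild-type mouse, and KO7 lay just under WT2. Means were 3977 ± 1414 and 6147 ± 1087 FPKM (SD, n = 4 each), a ratio of 1.55. The change was 0.69 (SE 0.27, 95% interval 0.07 to 1.32), with limma adjusted p = 0.480 and exact permutation p = 0.0857 (2-sided; the smallest that 4 against 4 mice allow is 0.0286). WT3 and WT4 were also the mice with the lowest short-transcript values given above, and the Gpx4 transcripts are short, at 735 to 995 nt. Other short transcripts of the family did not share this order. WT3 was not the lowest wild-type mouse for Sepw1 (736 nt), Selm (707 nt) or 2700094K13Rik (783 nt), at 87965, 175 and 208 FPKM. WT4 was the lowest for Sepw1. Whether transcript length plays a part was not tested. With the trend on length and GC removed, the Gpx4 change was 0.59 (limma adjusted p = 0.461). Under quantile scaling it was 0.42 (limma adjusted p = 0.465), under median-ratio scaling 0.84 (limma adjusted p = 0.412), and without WT3 alone 0.44.

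Gpx1, the cytosolic enzyme that reduces hydrogen peroxide, read 687, 364, 326 and 302 FPKM in wild-type mice and 359, 573, 314 and 306 FPKM in knockout mice. The 2 high values were those of WT1 and KO6, the mice with raised adipocyte and macrophage markers, and the other 6 lay between 302 and 364 FPKM. Its change was -0.08 (95% interval -0.77 to 0.61, limma adjusted p = 0.915), and its sign turned with median-ratio scaling (0.071). Without WT1 and KO6 the means were 331 ± 31.2 and 326 ± 28.7 FPKM (SD, n = 3 each), with an interval of -0.33 to 0.29 for the change. Gpx3, the secreted enzyme of plasma, read 310, 113, 178 and 140 FPKM in wild-type mice and 301, 457, 342 and 131 FPKM in knockout mice. KO6 was highest, and KO8 lay within the range of the 3 lower wild-type mice. Its change was 0.70 (95% interval -0.27 to 1.67, limma adjusted p = 0.516), and without WT1 and KO6 it was 0.75 (limma adjusted p = 0.445).

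Sepp1 encodes selenoprotein P, which carries selenium in plasma and is made mainly by the liver. It read 485, 198, 176 and 179 FPKM in WT1 to WT4 and 342, 515, 352 and 286 FPKM in KO5 to KO8. WT1 and KO6 were again highest, and the groups overlapped through WT1 alone. Over all mice the change was 0.63 (SE 0.34, 95% interval -0.15 to 1.42, limma adjusted p = 0.492). Without WT1 and KO6, the wild-type mean was 184 ± 11.9 FPKM and the knockout mean 327 ± 35.5 FPKM (SD, n = 3 each), and the 2 groups no longer overlapped. The change was then 0.82 (SE 0.13, 95% interval 0.51 to 1.13), with an unadjusted limma p of 0.000741 and a limma adjusted p = 0.445, so it did not pass. The exact permutation p came to 0.1, and 3 mice against 3 can give no smaller one. In that comparison 9.88% of the tested genes had an unadjusted limma p under 0.05 and 0.0989% passed with adjustment, while 19.4% of the tested genes had groups that did not overlap, 6.14% with higher knockouts. In the same 6 mice the 8 adipocyte markers summed to 135, 156 and 61.9 FPKM in wild-type mice and 541, 295 and 274 FPKM in knockout mice, and these sums also did not overlap. Cfd made up most of each sum, and without it the other 7 summed to 45.0, 65.5 and 30.6 FPKM against 108, 69.3 and 56.8 FPKM, which overlapped, with 3 of the 7 markers apart. The 8 macrophage markers summed to 134, 142 and 156 FPKM in these wild-type mice and 195, 185 and 169 FPKM in these knockouts, also apart. That separation was in Lyz2 alone, since the other 7 summed to 46.0, 74.2 and 66.5 FPKM against 68.9, 67.9 and 67.0 FPKM and 0 of the 7 were apart. Whether these cells play a part in the Sepp1 values was not tested. In bulk muscle, more cells of a type and more RNA per cell cannot be told apart. Sepp1 exons also overlap those of Ccdc152 on the opposite strand by 439 nt, so its values are uncertain unless the counting used strand, which was not given in the sources used here.

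**Figure D3:**
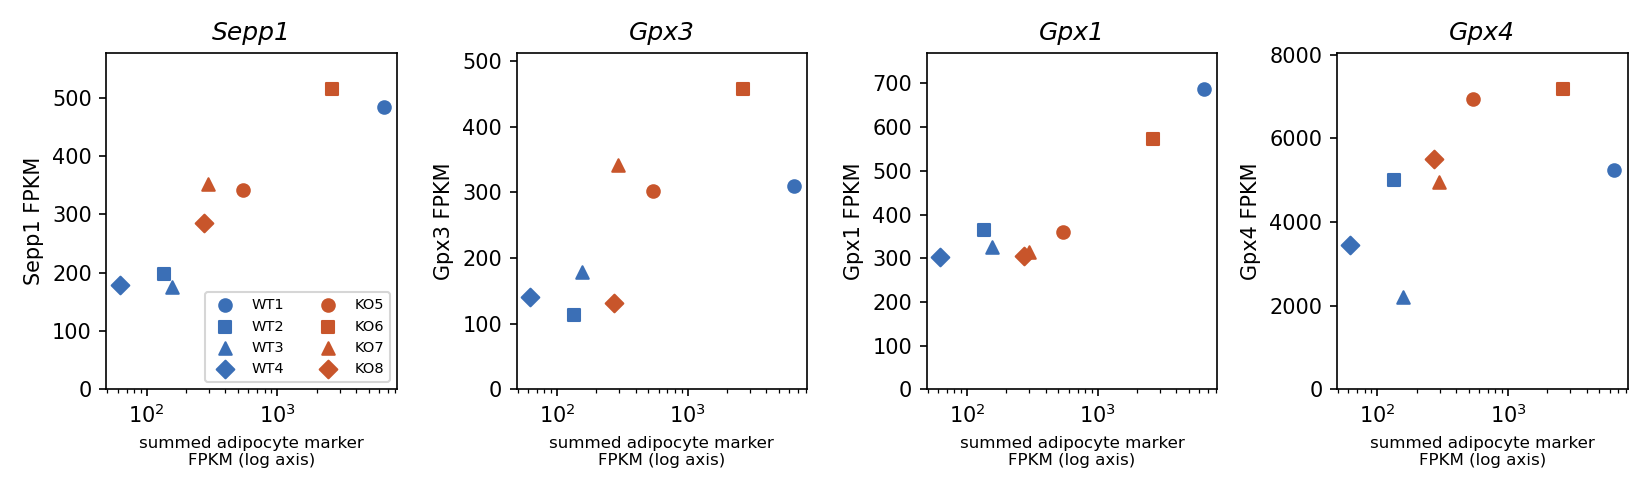
FPKM of Sepp1, Gpx3, Gpx1 and Gpx4 (linear axes from 0) against the summed FPKM of 8 adipocyte markers (log axis), 1 symbol per mouse, blue wild type and orange knockout. WT1 and KO6 lie to the right, with the highest Sepp1 and Gpx1 values, and the other 3 knockouts lie right of the other 3 wild-type mice.

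The receptors that take up selenoprotein P, Lrp8 and Lrp2, were too low to test, at no more than 0.156 FPKM in any mouse.

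The thioredoxin reductases keep thioredoxin reduced, Txnrd1 in the cytosol and Txnrd2 in mitochondria. Txnrd1 read 29.5, 34.5, 53.2 and 36.6 FPKM in wild-type mice and 36.5, 32.8, 29.4 and 17.6 FPKM in knockout mice. WT3 was highest and KO8 lowest, and 2 knockouts lay under every wild-type mouse. Means were 38.5 ± 10.3 and 29.1 ± 8.17 FPKM (SD, n = 4 each), and the change was -0.41 (95% interval -0.997 to 0.19, limma adjusted p = 0.532). WT3 and KO8 were also the mice at the ends of the short-minus-long transcript values. KO8 was besides low over all tested genes, with a median deviation of -0.35 on the log2 scale. Without KO8 alone the Txnrd1 change was -0.19, and without WT3 alone -0.24. Whether either trait of KO8 plays a part was not tested. The longest coding transcript of Txnrd1 has 3622 nt, and with the length and GC trend removed the change was -0.25 (limma adjusted p = 0.618). Txnrd2 was listed at 0 in WT1, KO6 and KO7, and at 7.13, 9.41 and 7.77 FPKM in WT2 to WT4 and 7.13 and 5.81 FPKM in KO5 and KO8. A deposited 0 can be a failed estimate, so no fold is given for Txnrd2 (limma adjusted p = 0.657).

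**Figure D4:**
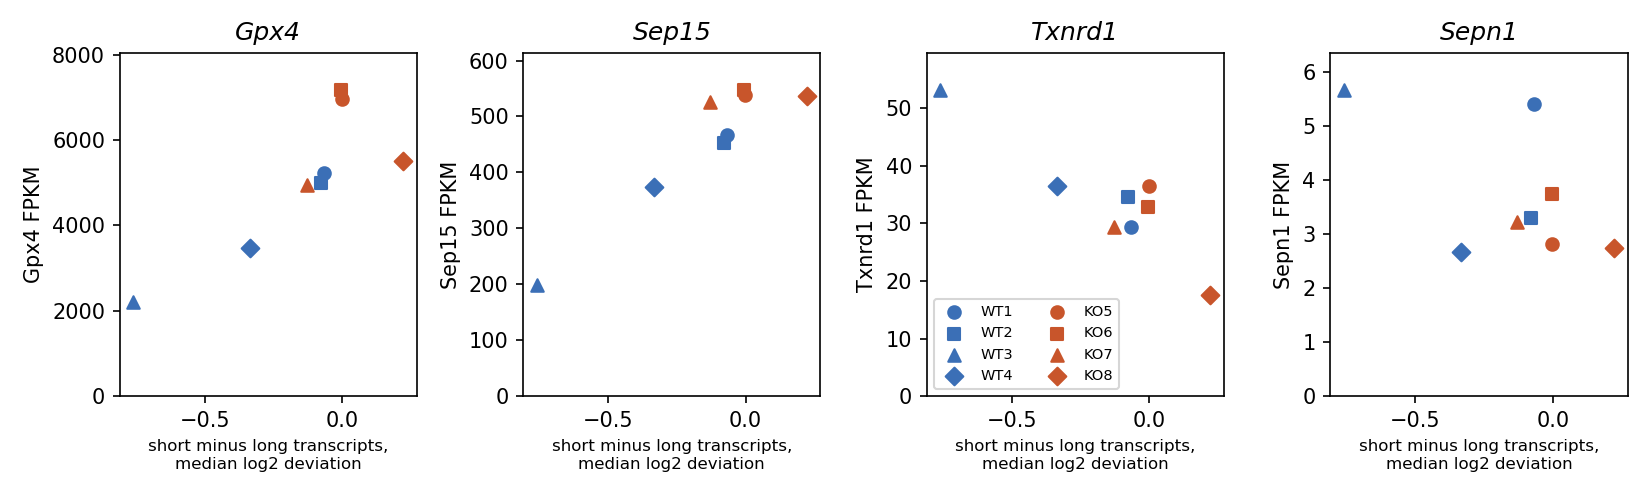
FPKM of Gpx4, Sep15, Txnrd1 and Sepn1 (linear axes from 0) against the median log2 deviation of transcripts under 1000 nt minus that of transcripts over 4000 nt in each mouse, blue wild type and orange knockout. WT3, at -0.76, has the lowest Gpx4 and Sep15 and the highest Txnrd1 and Sepn1, and KO8, at 0.22, has the lowest Txnrd1. The transcripts used have 995, 1514, 3622 and 3445 nt, and those of Sepw1, Selm and 2700094K13Rik, under 1000 nt, are not drawn.

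Selk, Selt and Sepn1 encode proteins of the endoplasmic reticulum. Selk, a membrane protein that works with a palmitoyltransferase, read 222, 218, 162 and 214 FPKM in wild-type mice and 240, 300, 208 and 171 FPKM in knockout mice. WT3 and KO8 were the lowest of their groups, and KO6 was the highest of all. Its change was 0.15 (95% interval -0.30 to 0.60, limma adjusted p = 0.729). Selt, a thioredoxin-fold protein like selenoprotein W, read 96.4, 87.4, 112 and 99.5 FPKM in wild-type mice and 149, 125, 80.9 and 93.3 FPKM in knockout mice, so the knockouts lay on both sides of the wild-type range. Its change was 0.14 (95% interval -0.32 to 0.61, limma adjusted p = 0.751), and -0.0057 without KO5. Sepn1 encodes selenoprotein N, whose loss in people causes congenital muscle disease. It read 5.41, 3.303, 5.68 and 2.67 FPKM in wild-type mice and 2.82, 3.75, 3.23 and 2.75 FPKM in knockout mice. WT1 and WT3 were higher than every knockout and WT4 was the lowest of all mice. Its change was -0.31 (95% interval -0.80 to 0.19, limma adjusted p = 0.566), and -0.10 with the length and GC trend removed.

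**Figure D5:**
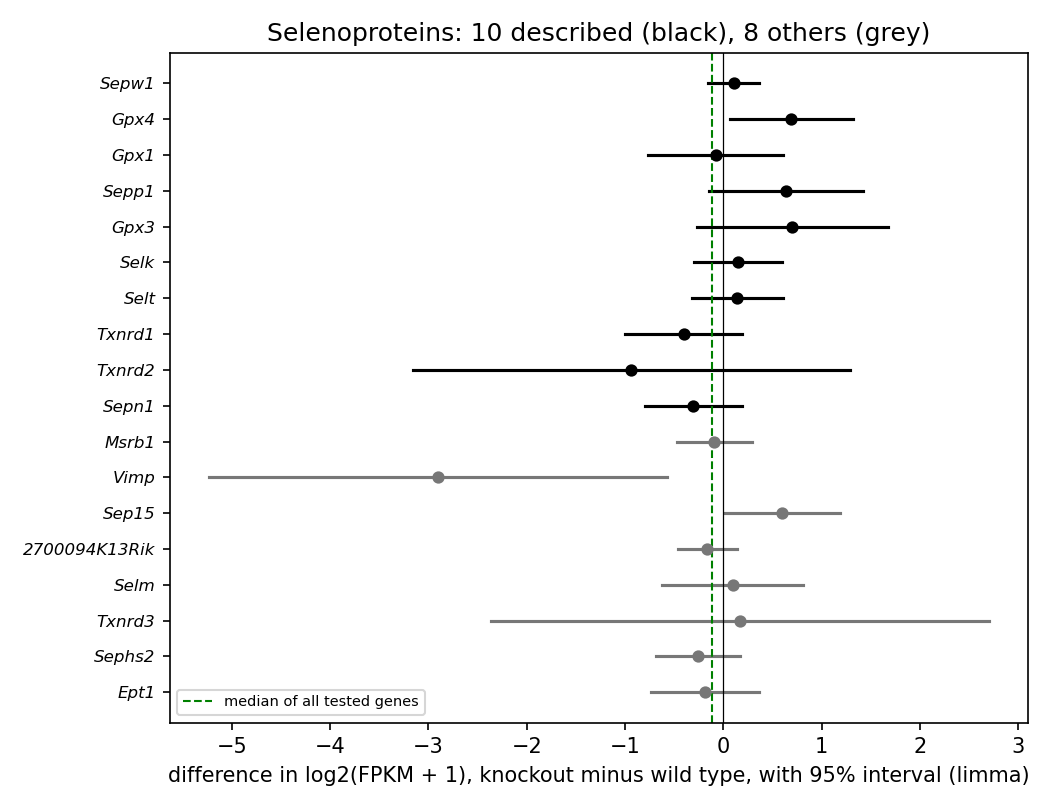
Difference in log2(FPKM + 1), knockout minus wild type, with its 95% interval from limma, for the 10 genes described (black) and 8 other selenoproteins (grey), each set in order of mean FPKM; the dashed line is the median of all tested genes, -0.12. Among the 10, the interval of Gpx4 alone lies above 0, and among the 8 that of Sep15 lies above 0 and that of Vimp below it.

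Of 14 further selenoprotein genes, 13 had a row and 8 passed the filter of a mean FPKM of 1. Below the filter were Selo, Gpx2, Dio1, Dio2 and Dio3, and Selv was not analysed here. None of the 8 passed over all genes (limma adjusted p from 0.480 to 0.956). Their median change was -0.13, beside -0.12 for all genes, with 3 above 0 and 5 below, and 1 of the 8 had groups that did not overlap, against 6.75% of tested genes. The 4 highest by mean were Msrb1 (3960 FPKM), Vimp (506 FPKM), Sep15 (455 FPKM) and the selenoprotein H gene 2700094K13Rik (192 FPKM). Msrb1, a methionine sulfoxide reductase, was the third most abundant selenoprotein transcript, after Gpx4. It read 3396 to 4862 FPKM in wild-type mice and 3029 to 4880 FPKM in knockout mice.

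Sep15 encodes selenoprotein F, an endoplasmic reticulum protein linked to glycoprotein folding. It read 467, 452, 200 and 374 FPKM in WT1 to WT4 and 538, 548, 526 and 536 FPKM in KO5 to KO8. Each knockout lay above every wild-type mouse, and WT3 was lowest. Means were 373 ± 123 and 537 ± 8.92 FPKM (SD, n = 4 each). The change was 0.60 (SE 0.26, 95% interval 0.01 to 1.18) and did not pass over all genes (limma adjusted p = 0.482). Its exact permutation p was 0.0286, the smallest possible. With the length and GC trend removed, the change was 0.58 (limma adjusted p = 0.473), and without WT3 alone it was 0.32. Knockouts all above the wild-type mice were found in 2.08% of tested genes, and knockouts all below them in 4.68%. Sep15 followed the order of Gpx4 in wild type, with WT3 lowest and WT4 next.

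Vimp encodes selenoprotein S, which helps to remove misfolded proteins from the endoplasmic reticulum. It read 2075, 47.6, 715 and 924 FPKM in WT1 to WT4, and 87.5, 108, 49.8 and 42.8 FPKM in KO5 to KO8. WT1, WT3 and WT4 were far above every knockout, and WT2 lay within the knockout range. The values spanned 48.5 times over the 8 mice. The change was -2.90 (SE 1.02, 95% interval -5.23 to -0.57, unadjusted limma p = 0.0204), with limma adjusted p = 0.480 and exact permutation p = 0.114 (2-sided). With single mice left out it ran from -4.03 without WT2 (limma adjusted p = 0.0523) to -2.23 without WT1 (limma adjusted p = 0.425), and it did not pass in either. Txnrd3 also spread widely within each group, at 147, 21.6, 6.36 and 24.5 FPKM in wild-type mice and 34.1, 5.72, 22.5 and 177 FPKM in knockout mice. No exon overlap with another gene was found for Vimp or Txnrd3.

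Of 9 genes that make and insert selenocysteine, 0 passed over all genes, 3 lay above 0 and 6 below, and the median change was -0.19. At an unadjusted limma p under 0.05 stood 1 higher and 2 lower, against 2.99% and 7.33% of tested genes. Sephs1, a relative of the selenophosphate synthetase, read 4.69, 5.52, 6.15 and 5.45 FPKM in wild-type mice and 3.60, 4.26, 3.61 and 2.67 FPKM in knockout mice, without overlap (change -0.52, limma adjusted p = 0.480). Scly, the lyase that frees selenium from selenocysteine, was chosen after its values were seen. It read 3.77 ± 0.55 and 2.57 ± 0.408 FPKM (SD, n = 4 each), also without overlap (change -0.42, limma adjusted p = 0.480). Knockouts all below the wild-type mice were found for these 2 of the 9, against 4.68% of tested genes. Trnau1ap, which binds the selenocysteine tRNA, was chosen in the same way and read 29.96, 26.2, 13.4 and 24.2 FPKM in wild-type mice and 33.5, 44.1, 26.9 and 37.9 FPKM in knockout mice. As for Gpx4 and Sep15, WT3 was its lowest mouse (change 0.62, limma adjusted p = 0.480).

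The partners of these enzymes did not pass either. Among 11 thioredoxin and peroxiredoxin genes, 0 passed, 6 lay above 0 and 5 below, with a median of 0.03. Prdx3, the mitochondrial peroxiredoxin, had the smallest p and groups that did not overlap, at 167 ± 11.6 and 140.5 ± 6.34 FPKM (SD, n = 4 each; limma adjusted p = 0.484). Of 10 glutathione and glutaredoxin genes 0 passed, with a median change of -0.004, and Glrx3, a cytosolic glutaredoxin, stood at 122 ± 38.5 and 159 ± 9.17 FPKM (limma adjusted p = 0.495). Of 4 superoxide dismutase and catalase genes 0 passed, with a median of -0.33, and the mitochondrial Sod2 stood at 71.0 ± 10.1 and 56.3 ± 10.8 FPKM (limma adjusted p = 0.488). Of 14 tested genes of the NRF2 response, which induces antioxidant enzymes, 0 passed and 12 lay below 0, with a median of -0.17, and the smallest p was that of Txnrd1. Relatives that carry cysteine in place of selenocysteine had 0 of 5 past the threshold and 5 of 5 below 0, with a median of -0.14. Over all tested genes only 36.4% lay above 0, and the median was -0.12. Below that median lay 11 of the 14 NRF2 genes and 3 of the 5 cysteine-carrying relatives. The knockouts lay below every wild-type mouse for 2 of the 5, against 4.68% of tested genes. These were the methionine sulfoxide reductases Msrb2, at 12.6 ± 1.57 and 9.47 ± 0.936 FPKM, and Msrb3, chosen after its values were seen, at 38.1 ± 8.81 and 27.0 ± 3.10 FPKM (SD, n = 4 each; limma adjusted p = 0.480 for both).

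The authors' deposited table marks rows by thresholds of 0.05 and 0.001 on a p-value, by a test not given in the sources used here. At 0.05 it marks 6 of the 10 genes, Gpx4, Gpx1, Sepp1, Gpx3, Txnrd1 and Txnrd2, and at 0.001 the first 4 of these. The authors' deposited table marks 10.8% of the tested genes at 0.001 and 20.2% at 0.05, and 74.6% of those with a mean of at least 100 FPKM, where it marks 4 of the 7 selenoproteins described. Gpx1 carries both marks in the authors' deposited table, with means there of 419.9 and 388 FPKM, while Sepw1 carries none.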

How the data were processed

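Per the labels' protocols, TruSeq v2 libraries from 8 muscles were sequenced single-end for 50 cycles, TopHat 2.0.9 placed the reads on mm10, and unique reads were turned into FPKM by Cufflinks. Its version was 2.0.2 there but 2.2.1 per the submitters' processing notes. Annotation and strand setting were not given in the sources used here. FPKM were deposited in 1 column per mouse, per the file headers. WT1 to WT4 match labelled mice, whereas KO5 to KO8 name the knockout group only.

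The highest-mean row was kept for repeated symbols. Genes averaging 1 FPKM or more (11118) entered limma-trend of log2(FPKM + 1), 2-sided, adjusted over all of them by Benjamini-Hochberg with a threshold of 0.05. Changes are knockout minus wild type on that scale, which understates those of low genes. Single genes also had an exact permutation test over 70 splits. No read totals exist in FPKM, so precision rests on the spread between mice. Relative depth is the reciprocal of the mode of ratios of FPKM under 0.3 to those of WT2, since low values fall as depth rises. Deposited starts plus 1 matched 29072 of 37451 identifiers in GENCODE M21.

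Members and lists were chosen with earlier results of these data known. Besides the members, the named genes were the 4 highest other selenoproteins and any of these with an unadjusted p under 0.05. The smallest-p gene of each list was also named. For Sepw1, the next 3 genes by mean were added, and the 5 of highest Pearson r once provisional symbols were left out. Txnrd3 was named after its values were seen, Ept1 for a change of sign, and Selm for that and for its short transcript. Alternatives changed the pseudocount (0.1, 0.5), filter, scaling, rows, zeros, eBayes settings, length and GC trend, share denominator and mice. The fit was tested on simulated data with the spread of each gene. It recovered 43% of 100 genes given a log2 change of 1 and 82% of 100 given 2, and 11 of its 136 calls were false. Its noise was drawn separately for each gene, and the real fit made only 3 calls, which sets a stricter cut. The recovered shares may therefore be too high for the real data. Changes of the size estimated for single selenoproteins can thus be missed. Tools were limma 3.58.1 (R 4.3.3) and pandas 2.3.3 (Python 3.11.15). A further exon overlap is not reported here.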

Additional observations from a re-analysis of the deposited data

Results flagged for a closer look

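In 5 of 40 groups of 4 mice checked, 1 mouse lay far from the other 3, by a gap past the Dixon 95% limit for 4 values, which chance passes in about 1 of 20 groups. WT1 stood above the other wild-type mice for Sepp1 (485 FPKM), Gpx1 (687 FPKM) and Txnrd3 (147 FPKM). WT3 lay below the others for Selk (162 FPKM). KO8 stood above the other knockouts for Txnrd3 (177 FPKM).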

How the results depend on the processing

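None of the 10 selenoproteins passed over all genes under any of the 20 alternatives run. The count of all genes past the threshold was 3, and became 1 with zeros as missing, 11 without both WT1 and KO6, and 4 to 9 with single mice left out. The difference in Sepw1 share turned to -0.384 percentage points without WT1 and KO6 (exact permutation p = 0.8), and ran from -0.679 to 0.673 with single mice left out. Gpx1 turned to 0.071 and Msrb1 to 0.059 with median-ratio scaling, Sepw1 to -0.046 with the length and GC trend removed, and Msrb1 to 0.11 without WT1 and KO6. With single mice left out, the changes ran from -0.28 to 0.18 for Gpx1, -0.21 to 0.017 for Msrb1, -0.16 to 0.30 for Selm, -0.0057 to 0.28 for Selt, -0.39 to 0.0096 for Ept1 and -0.67 to 0.96 for Txnrd3. Of the 10 genes, 3 reached an unadjusted limma p under 0.05 with median-ratio scaling (11.9% of all tested genes), 0 with quantile scaling and 1 with the length and GC trend removed. Sepn1 and Txnrd2 lie below the stricter filter of 5 FPKM. Leaving out WT1 gave 9 genes, WT2 or KO7 8, KO6 6 and KO8 5, and the 3 main genes were among them each time. No paired analysis was possible because the knockout columns carry none of the labels' replicate numbers.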
